A study of Mus musculus with 6 samples.

Results

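Chil1, Chil3, Chil4, Retnla, Arg1, Arg2, Nos2, Slc7a2 and Odc1, the chitinase-like, resistin-like and arginine-handling genes, were followed through polyadenylated RNA of alveolar macrophages. These macrophages were sorted from the lungs of untreated mice. The 9 genes were taken by symbol from a table of 46078 gene rows, and each was found on 1 row. The mutant mice were Car4fl/fl-CD11cCre (3 libraries, called Cre libraries here), which carried loxP-flanked alleles of Car4 and a Cre recombinase under control of CD11c, the integrin gene Itgax. The Car4fl/fl mice (3 libraries, called controls) carried the same loxP-flanked alleles without Cre. CD11c is also made by dendritic cells, and no group carried Cre with unfloxed Car4, so the Cre transgene and deletion of Car4 cannot be told apart. Neither age nor sex is stated for these mice, nor whether any library pooled animals.

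Chitinase-like proteins fold like chitinases but have lost the ability to cut chitin. Chil3 encodes Ym1 and Chil4 the closely related Ym2, both secreted by mouse myeloid and airway cells, and Chil1 encodes the secreted glycoprotein BRP-39. In mouse macrophages, Chil3, Arg1 and Retnla are the usual markers of alternative activation, the state set by the cytokines IL-4 and IL-13 through the transcription factor STAT6. Arginine enters the cell through carriers such as Slc7a2 and is then contested by arginases, which make ornithine and urea, and by the inducible nitric oxide synthase Nos2. Ornithine decarboxylase, encoded by Odc1, turns ornithine into putrescine, the starting point of the polyamines.

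The targeted gene, Car4, which encodes membrane-anchored carbonic anhydrase 4, held 40.2, 46.9 and 36.3 CPM (counts per 1000000, with library totals scaled by TMM factors) in the Cre libraries, against 499, 385 and 270 CPM in the controls. Library totals lay between 53824475 and 65443314 gene counts, at which 3 counts equal 0.0465 to 0.0557 CPM. The alveolar macrophage markers Siglecf and Mrc1 were plentiful in all 6 libraries, Siglecf at 464 to 592 CPM in the Cre libraries and 663 to 752 CPM in the controls. Along the main axis of variation, which held 47% of the variance, Cre library 1 lay between the controls and the other 2 Cre libraries. By edgeR, 15147 genes were tested, of which 1 was called higher in the Cre libraries (0.0066%) and 1 lower (0.0066%) at an adjusted p under 0.05. Neither called gene was among these 9. DESeq2 called 344 genes higher (2.27%) and 217 lower (1.43%). An unadjusted edgeR p under 0.05 was reached by 6.54% of genes on the higher side and 6.28% on the lower side. Among the 19 tested alveolar macrophage markers, Car4, Chil3, Siglecf and Mrc1 included, 5 reached it on the higher side and 6 on the lower side.

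None of the 9 genes passed edgeR, and the levels of 8 were nonetheless higher on average in the Cre libraries. A low-count filter passed 8 of the 9 genes and left out Nos2. Of these 8, edgeR gave 6 an unadjusted p under 0.05 on the higher side and 0 on the lower side, and called 0 after adjustment, with adjusted p from 0.146 to 0.961. DESeq2 called 3 of them higher, Arg1, Chil3 and Slc7a2. All 3 Cre libraries lay above all 3 controls for Chil1, Chil3, Retnla, Arg1 and Slc7a2 among the genes tested and for Nos2 outside the filter, a pattern shown by 8.63% of all genes tested. No member had all 3 Cre libraries below all 3 controls, against 9.22% of genes tested. Since the genes were listed with earlier results of these libraries known, these shares are a description. The plot of each gene by library gives all values.

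**Figure D1:**
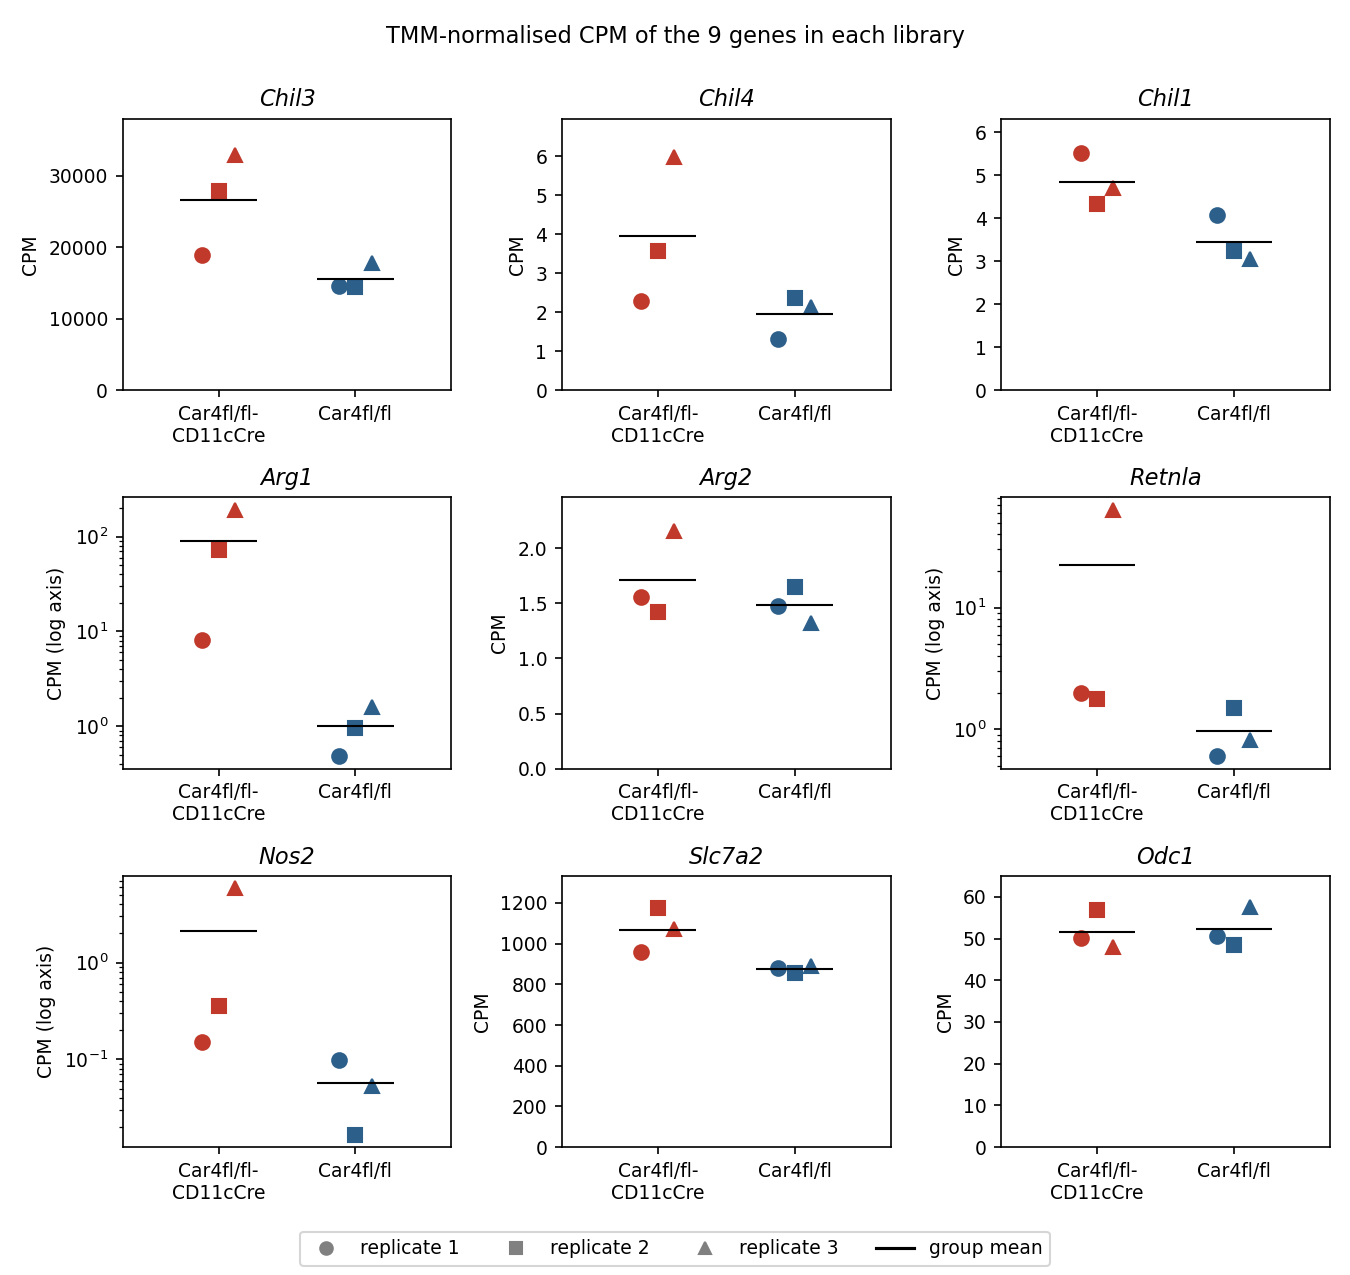
Expression of the 9 genes in each library, as CPM on the vertical axes (logarithmic for Arg1, Retnla and Nos2), with Car4fl/fl-CD11cCre on the left and Car4fl/fl on the right of each panel. Symbols are single libraries and horizontal lines are means of 3. Cre library 3 carries the highest value of Chil3, Chil4, Arg1, Arg2, Retnla and Nos2.

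Chil3 was the most abundant transcript of all in the Cre libraries and ranked 2 in the controls. It held 18927, 27945 and 32961 CPM in the Cre libraries, against 14629, 14423 and 17834 CPM in the controls. The groups did not overlap, but Cre library 1 stood at only 1.06 times the highest control. The means were 26611 ± 7111 CPM in the Cre libraries and 15628 ± 1912 CPM in the controls (SD, n = 3 each), a log2 fold change of 0.77 ± 0.20 (SE; adjusted p 0.185, edgeR quasi-likelihood test). Of 16 alternatives 3 called the gene: DESeq2 (adjusted p 0.0447), edgeR with no low-count filter (adjusted p 0.0273), and edgeR without Cre library 1 (log2 fold change 0.96, adjusted p 0.0118, in a fit that called 1.59% of genes higher and 0.237% lower), over a range of 0.0118 to 0.479 across all alternatives. Chil3 (ENSMUSG00000040809) lies at chr3:106147554-106167564 of GRCm38 on the minus strand. Its reads took up 1.9, 2.76 and 3.3% of all gene counts in the Cre libraries and 1.44, 1.46 and 1.80% in the controls. Together with Chil4 the share was 1.08 percentage points larger in the Cre libraries (exact two-sided permutation p 0.1, the smallest that 3 against 3 can give).

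Chil4 and Chil3 are neighbours on chromosome 3 and near copies of each other. Their full-length transcripts in GENCODE M21 matched at 1452 of 1540 aligned positions, and the longest identical stretch of their open reading frames ran to 136 bases. Of all windows of 50 bases in the annotated Chil4 transcripts, 9.95% also occurred in a Chil3 transcript, and of windows of 100 bases, 2.03%. The first 90 bases of both open reading frames, printed from the start codon with the 2 differing bases in capitals, show how little separates them.
Chil3: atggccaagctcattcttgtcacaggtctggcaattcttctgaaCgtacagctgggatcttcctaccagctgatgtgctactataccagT
Chil4: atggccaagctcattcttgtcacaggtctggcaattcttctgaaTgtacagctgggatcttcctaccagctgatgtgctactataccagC

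Chil4 (ENSMUSG00000063779, chr3:106201490-106219507, minus strand) was a rare transcript beside Chil3. Its level was 2.30, 3.58 and 5.98 CPM in the Cre libraries, against 1.31, 2.38 and 2.15 CPM in the controls. Cre library 3 was the highest, and Cre library 1 overlapped the controls. By edgeR the log2 fold change was 1.02 ± 0.37 (SE; adjusted p 0.307), and it was 0.60 without Cre library 3. For each 10000 Chil3 counts there were 1.21, 1.28 and 1.81 Chil4 counts in the Cre libraries and 0.897, 1.65 and 1.2 in the controls. This proportion overlapped between the groups, with a difference of 0.22 on the log2 scale (exact two-sided permutation p 0.4). Whether Chil4 counts are Chil3 reads placed on the neighbouring copy was not tested. The nearby pseudogene Gm6522 (chr3:106275200-106299760, chosen after its values were seen) held 2.10, 3.61 and 3.62 CPM in the Cre libraries and 1.34, 1.81 and 1.65 CPM in the controls. Relative to 10000 Chil3 counts that was 1.11, 1.29 and 1.10 in the Cre libraries and 0.919, 1.26 and 0.928 in the controls, and 18.8% of its windows of 50 bases occurred in a Chil3 transcript.

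**Figure D2:**
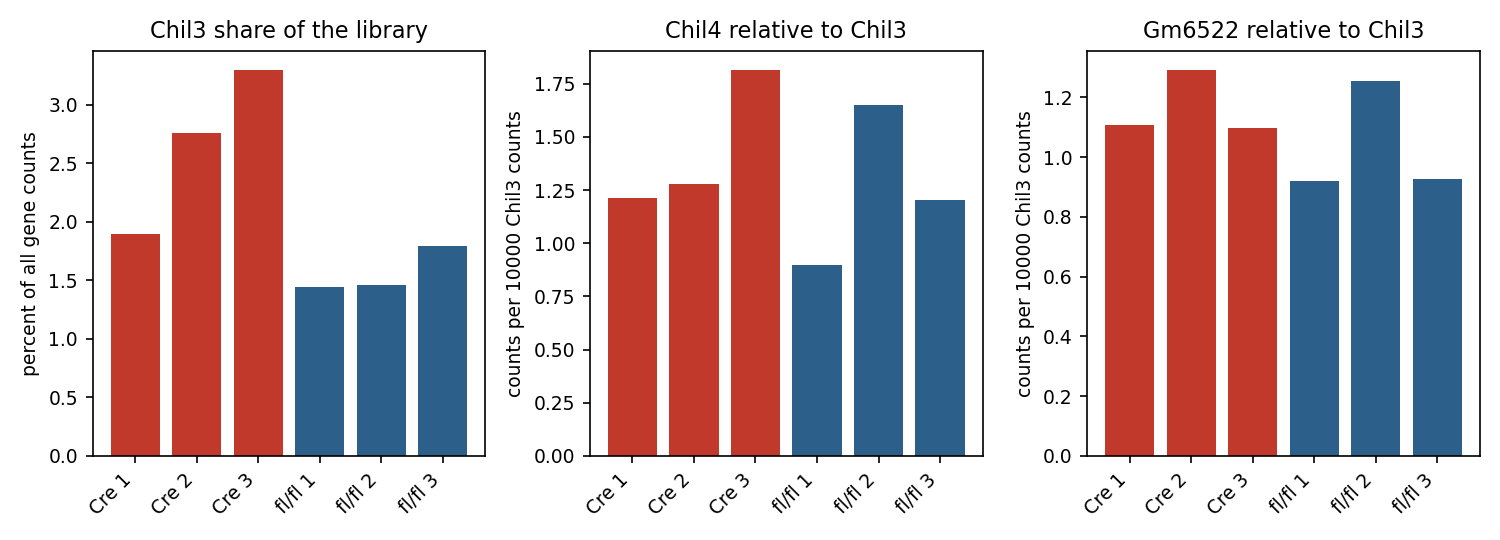
Share of all gene counts taken by Chil3 in each library (left), and Chil4 counts (middle) and Gm6522 counts (right) for each 10000 Chil3 counts, with Car4fl/fl-CD11cCre libraries in red and Car4fl/fl libraries in blue. The Chil3 share is at most 1.80% in controls and at least 1.9% in Cre libraries, while both ratios overlap between the groups.

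The region before the start of Chil3 is likewise mostly repeated before Chil4. These windows, from RefSeq on GRCm38.p6, hold 250 bases before and 50 bases after the annotated start, on the strand of the gene. They are shown because Chil3, Chil4 and Retnla, members for which RefSeq windows were at hand, had their highest value in the same library. Capitals mark matches to TATAAA on the gene's strand and, on either strand, to TTGCNNAA, to TTCNNNGAA and to the wider palindrome in which TTC and GAA stand 4 bases apart, and no 2 matches overlap.
Chil3, chr3:106167515-106167814, minus strand: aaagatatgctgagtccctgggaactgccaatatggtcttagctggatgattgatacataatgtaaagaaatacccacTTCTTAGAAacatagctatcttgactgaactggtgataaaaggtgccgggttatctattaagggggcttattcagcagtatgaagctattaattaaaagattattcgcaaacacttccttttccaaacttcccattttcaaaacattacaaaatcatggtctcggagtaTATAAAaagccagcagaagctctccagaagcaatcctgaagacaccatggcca
Chil4, chr3:106219430-106219729, minus strand: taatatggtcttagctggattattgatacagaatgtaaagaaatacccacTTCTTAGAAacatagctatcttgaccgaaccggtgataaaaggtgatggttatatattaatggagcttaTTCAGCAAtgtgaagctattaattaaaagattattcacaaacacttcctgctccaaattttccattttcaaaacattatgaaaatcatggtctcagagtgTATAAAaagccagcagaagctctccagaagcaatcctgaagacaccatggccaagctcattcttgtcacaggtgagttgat
Retnla, chr16:48842359-48842658, plus strand: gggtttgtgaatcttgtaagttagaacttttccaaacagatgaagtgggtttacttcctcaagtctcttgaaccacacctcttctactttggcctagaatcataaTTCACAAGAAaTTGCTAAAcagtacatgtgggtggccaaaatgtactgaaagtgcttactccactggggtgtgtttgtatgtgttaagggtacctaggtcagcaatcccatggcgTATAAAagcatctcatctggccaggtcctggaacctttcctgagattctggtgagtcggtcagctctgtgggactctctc

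The Chil3 and Chil4 windows matched at 251 of 329 aligned positions, with 20 mismatches and 58 gaps. Both hold TTCTTAGAA, which fits the STAT-type palindrome TTCNNNGAA, starting 172 bases before the annotated start of Chil3 and 200 bases before that of Chil4. Of 32851 RefSeq windows of this length, 8.3% hold TTCNNNGAA. The wider palindrome with 4 bases between, which STAT6 is known to bind, occurs in the Retnla window as TTCACAAGAA at 145 bases before the start, and in 6.95% of all windows. Next to it stands TTGCTAAA at 134 bases before the start, a match to the C/EBP-type pattern TTGCNNAA that 10.8% of windows hold. The Chil4 window has such a match on the opposite strand. A TATAAA begins 3, 31 and 30 bases before the annotated starts of Chil3, Chil4 and Retnla, and 8.32% of windows contain one. In Chil3 the match therefore spans the annotated start. Chil1 and Odc1 windows held no match to any of these patterns, which says only that these letters do not occur there.

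Chil1 (ENSMUSG00000064246, chr1:134182176-134190181, plus strand) was less abundant and differed little among the Cre libraries. It held 5.51, 4.32 and 4.70 CPM in the Cre libraries, against 4.07, 3.24 and 3.06 CPM in the controls. Here Cre library 1 was the highest and the groups did not overlap, with the lowest Cre value 1.06 times the highest control value. The log2 fold change was 0.49 ± 0.16 (SE; adjusted p 0.271 by edgeR and 0.147 by DESeq2).

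Arg1, the cytosolic arginase, gave the largest difference of the 9 genes and one of very unequal size among the Cre libraries. It held 8.16, 72.2 and 192 CPM in the Cre libraries, against 0.481, 0.948 and 1.6 CPM in the controls. The groups did not overlap, and the lowest Cre library stood at 5.10 times the highest control. Arg1 in Cre library 3 was 23.5 times that in Cre library 1, whereas Car4 varied by 1.29 times among the same 3 libraries. The log2 fold change was 6.50 ± 1.18 (SE; adjusted p 0.146, edgeR quasi-likelihood test). Of 16 alternatives 4 called the gene, among them DESeq2 (adjusted p 5.23e-06), edgeR with no low-count filter (adjusted p 0.00142), and edgeR without Cre library 1 (log2 fold change 7.03, adjusted p 0.002). The other was edgeR with a replicate block (adjusted p 0.014), though the labels do not state that the libraries are paired. Over all alternatives the adjusted p ranged from 5.23e-06 to 0.485, the highest with limma-voom. Arg1 (ENSMUSG00000019987) lies at chr10:24915221-24927484 on the minus strand. By mean level it ranked 2460 among all genes in the Cre libraries and 11502 in the controls.

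The summed markers of interstitial macrophages rose with Arg1 among the Cre libraries, but not every gene of the list did. Their 15 genes summed to 466, 774 and 1001 CPM in the Cre libraries, against 518, 469 and 463 CPM in the controls. Of these genes 9 lay above and 1 below with an unadjusted p under 0.05 by edgeR. Most of the sum was Apoe and Csf1r. Apoe held 97.4, 250 and 505 CPM in the Cre libraries, against 92.8, 87.4 and 106 CPM in the controls. Csf1r held 344, 463 and 394 CPM in the Cre libraries, against 407, 363 and 341 CPM in the controls. The complement gene C1qa held 1.88, 12.4 and 18.2 CPM in the Cre libraries, against 0.681, 1.01 and 0.722 CPM in the controls. The defining markers Folr2 and Lyve1 stayed at or below 0.41 and 1.84 CPM in the Cre libraries and 0.416 and 1.41 CPM in the controls. Lyve1 was highest in Cre library 1, where Arg1 was lowest, at 1.84, 0.496 and 0.724 CPM in the Cre libraries. Folr2 held 0.101, 0.294 and 0.409 CPM in the same libraries. Cd163 averaged 0.307 ± 0.111 CPM in the Cre libraries and 0.887 ± 0.356 CPM in the controls. In bulk RNA, more cells of a type and more RNA per cell cannot be told apart, and the part of such cells in the Arg1 values was not tested.

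Arg2 (ENSMUSG00000021125, chr12:79130777-79156301), the mitochondrial arginase, overlapped between the groups. It held 1.56, 1.43 and 2.15 CPM in the Cre libraries, against 1.48, 1.65 and 1.32 CPM in the controls, with Cre library 3 the highest. The log2 fold change was 0.21 ± 0.22 (SE; adjusted p 0.768 by edgeR), and 0.01 without Cre library 3. The Arg1 to Arg2 count ratio was 5.25, 50.6 and 89.1 in the Cre libraries, against 0.326, 0.576 and 1.21 in the controls. On the log2 scale the group means of this ratio differed by 5.53 (exact two-sided permutation p 0.1, the smallest possible here). The open reading frames of both arginases matched at 637 of 1079 aligned positions.

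Nos2 (ENSMUSG00000020826, chr11:78920787-78960254), which encodes the enzyme that makes nitric oxide from arginine, was near the limit of detection outside 1 library. Its counts were 9, 23 and 314 in the Cre libraries, against 6, 1 and 3 in the controls, or 0.152, 0.356 and 5.83 CPM against 0.0996, 0.0166 and 0.0528 CPM. The groups did not overlap, but Cre library 3 alone held most of the Cre counts. It stood at 103 times the pooled controls (95% interval 55.5 to 218, exact binomial, counting error only), while Cre libraries 1 and 2 together stood at 4.58 times (2.2 to 10.5). Nos2 did not pass the low-count filter, so it has no test, and its mean CPM differed by 5.23 on the log2 scale. With no filter edgeR gave a log2 fold change of 5.16 (adjusted p 0.0229), in a fit that called 1.23% of 27536 genes higher and 0.665% lower.

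Retnla, which encodes the secreted protein RELM-alpha, separated Cre library 3 from every other library. It held 1.99, 1.78 and 63.6 CPM in the Cre libraries, against 0.598, 1.48 and 0.810 CPM in the controls. All 3 Cre libraries lay above the controls, but libraries 1 and 2 only by a little, at 2.07 and 1.85 times the control mean, against 66.1 times in library 3. The log2 fold change of 4.53 ± 1.45 (SE; adjusted p 0.264, edgeR) became 0.97 without Cre library 3 (adjusted p 0.471). DESeq2 gave no p-value for this gene, and limma-voom gave a log2 fold change of 2.61. With no low-count filter edgeR called it (adjusted p 0.0314). For each Arg1 count there were 0.244, 0.0247 and 0.331 Retnla counts in the Cre libraries, so Cre library 2, with Arg1 at 72.2 CPM, held Retnla near the level of library 1. In the controls this ratio was 1.24, 1.56 and 0.505. Retnla (ENSMUSG00000061100) lies at chr16:48842551-48844461.

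**Figure D3:**
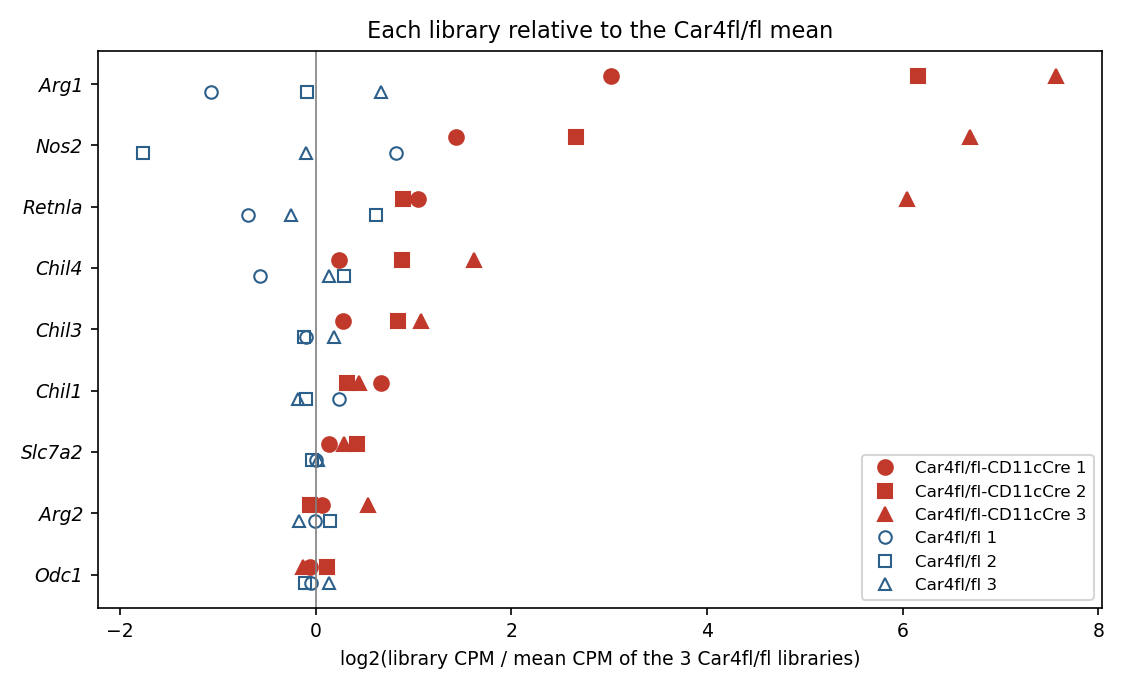
Each library relative to the mean of the 3 Car4fl/fl libraries, as log2 of the CPM ratio on the horizontal axis, with 1 gene per row. Filled red symbols are Car4fl/fl-CD11cCre libraries and open blue symbols are Car4fl/fl libraries. Arg1 is far to the right in all 3 Cre libraries, Retnla and Nos2 mainly in Cre library 3, and Odc1 and Arg2 overlap the controls.

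Slc7a2 (ENSMUSG00000031596, chr8:40862396-40922308), the cationic amino acid transporter CAT2 that carries arginine, was abundant and lay slightly higher in all 3 Cre libraries. It held 960.2, 1173 and 1071 CPM in the Cre libraries, against 881, 855 and 892 CPM in the controls. The controls agreed closely, with a coefficient of variation of 2.2%, and the groups did not overlap. The log2 fold change was 0.29 ± 0.08 (SE; adjusted p 0.203 by edgeR and 0.0132 by DESeq2). Odc1 (ENSMUSG00000011179, chr12:17544794-17551505) overlapped between the groups, at 50.02, 56.8 and 47.9 CPM in the Cre libraries against 50.6, 48.4 and 57.5 CPM in the controls. Its log2 fold change was -0.02 ± 0.09 (SE; adjusted p 0.961, edgeR), with a sign that turned to 0.03 without Cre library 3 and 0.05 without control library 3.

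Per kilobase of annotated exon, the order of levels differed between the groups for Arg1 above all. In the Cre libraries the mean CPM per kilobase was 16306 for Chil3, 117 for Slc7a2, 40.7 for Arg1, 37.5 for Retnla, 15.1 for Odc1, 1.73 for Chil1, 1.40 for Chil4, 1.2 for Arg2 and 0.479 for Nos2. In the controls it was 9576 for Chil3, 95.9 for Slc7a2, 15.3 for Odc1, 1.61 for Retnla, 1.23 for Chil1, 1.04 for Arg2, 0.691 for Chil4, 0.453 for Arg1 and 0.0128 for Nos2. Over the 3 controls the ranges of Chil3, Slc7a2 and Odc1 were separate from each other and from all lower genes. The ranges of Retnla and Chil1 overlapped, as did those of Chil1 and Arg2 and those of Chil4 and Arg1, while Arg2 and Chil4 had separate ranges, as had Arg1 and Nos2. Over the Cre libraries only the range of Chil3 was separate from all others, and Retnla overlapped Slc7a2 through Cre library 3. The ranges of Arg1, Retnla and Odc1 overlapped, as did those of Chil1, Chil4, Arg2 and Nos2 with their neighbours.

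No gene of the arginine lists passed edgeR, and list medians lay near 0. The list of arginine transport and nitric oxide synthesis, Slc7a2 included, had 14 tested genes, and edgeR called 0 in either direction. With an unadjusted p under 0.05, 2 lay above (Slc7a2 and Ass1) and 2 below. DESeq2 called 2 higher (Slc7a2 and Ass1) and 1 lower. The median log2 fold change of these 14 genes was -0.06, against -0.0019 over all genes tested. Ass1, which rebuilds arginine from citrulline, held 1.35, 6.54 and 4.40 CPM in the Cre libraries, against 1.23, 0.831 and 0.528 CPM in the controls (log2 fold change 2.24, adjusted p 0.177, edgeR). Slc3a2, the heavy chain shared by several amino acid exchangers, averaged 307 ± 3.63 CPM in the Cre libraries and 352 ± 4.72 CPM in the controls (SD, n = 3 each; adjusted p 0.173, edgeR). Gch1, which begins the synthesis of the Nos2 cofactor tetrahydrobiopterin, averaged 29.9 ± 1.15 CPM in the Cre libraries and 34.6 ± 2.07 CPM in the controls. Qdpr, which recycles that cofactor, was at 110.7 ± 4.93 CPM in the Cre libraries and 111 ± 7.48 CPM in the controls.

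On the list of arginase, ornithine, proline and creatine genes, which holds Arg1 itself, 13 were tested and edgeR called 0. With an unadjusted p under 0.05, 2 lay above (Arg1 and Gatm) and 1 below (Gamt). DESeq2 called 2 higher (Arg1 and Gatm) and 0 lower, and the median log2 fold change was 0.000221. Gatm, which uses arginine to begin creatine synthesis, held 6.91, 15.5 and 13.7 CPM in the Cre libraries, against 5.41, 4.84 and 6.79 CPM in the controls (log2 fold change 1.09, adjusted p 0.185, edgeR). Gamt, which completes creatine, averaged 10.6 ± 0.633 CPM in the Cre libraries and 13.7 ± 2.15 CPM in the controls. The ornithine aminotransferase gene Oat averaged 108 ± 6.54 CPM in the Cre libraries and 99.8 ± 4.4 CPM in the controls. Aldh18a1, which makes proline precursors from glutamate, averaged 60.2 ± 6.24 CPM in the Cre libraries and 63.7 ± 3.92 CPM in the controls. The proline-degrading enzyme gene Prodh averaged 4.35 ± 0.468 CPM in the Cre libraries and 5.15 ± 0.39 CPM in the controls.

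Of the polyamine genes 17 were tested and 0 were called in either direction by edgeR or DESeq2. An unadjusted edgeR p under 0.05 was reached by 2 on the higher side and 0 on the lower side, and the median log2 fold change was -0.03. Azin2, which relieves ornithine decarboxylase from its antizyme, was rare, at 0.22, 0.31 and 0.483 CPM in the Cre libraries, against 0.0996, 0.0831 and 0.0352 CPM in the controls (adjusted p 0.162, edgeR). The spermine synthase gene Sms averaged 9.47 ± 0.618 CPM in the Cre libraries and 7.92 ± 0.279 CPM in the controls. Amd1, which supplies the aminopropyl donor, averaged 23.8 ± 0.6 CPM in the Cre libraries and 26.1 ± 1.2 CPM in the controls. Eif5a, whose protein carries the spermidine-derived residue hypusine, averaged 736 ± 19.5 CPM in the Cre libraries and 768 ± 45.8 CPM in the controls. The polyamine transporter gene Atp13a3 averaged 629.6 ± 40.5 CPM in the Cre libraries and 628 ± 31.6 CPM in the controls.

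**Figure D4:**
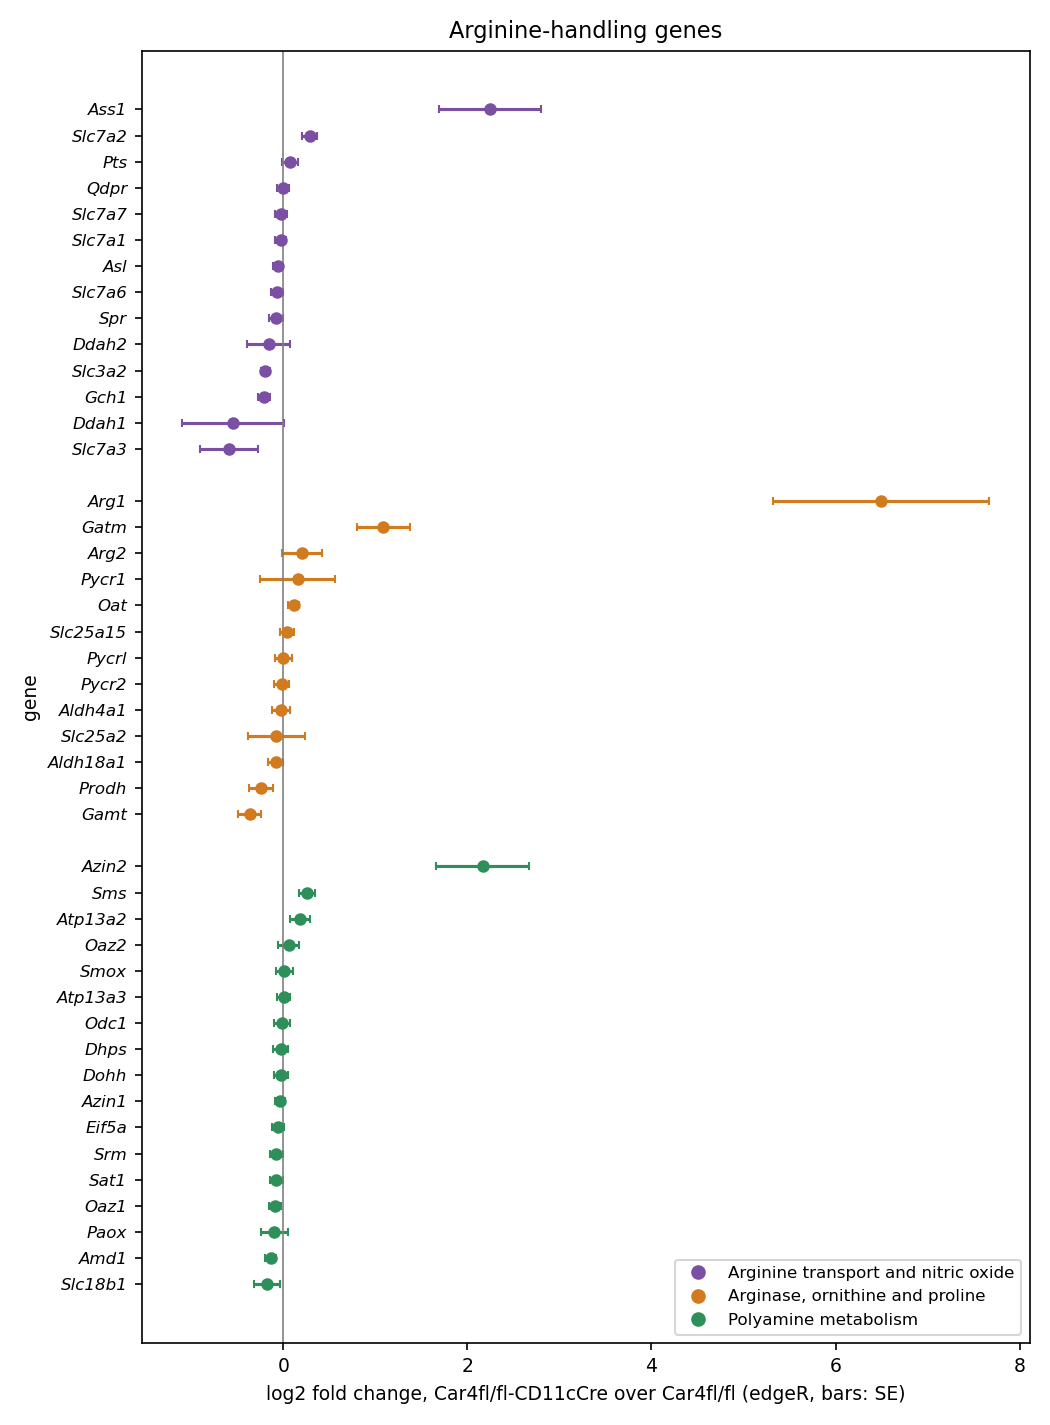
Log2 fold change of Car4fl/fl-CD11cCre over Car4fl/fl on the horizontal axis for the tested genes of 3 lists, with SE from the edgeR fit as bars. Arg1 is at 6.50, Ass1 at 2.24, Azin2 at 2.17 and Gatm at 1.09, and the other genes lie closer to 0.

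Apart from the members, genes of the chitinase and chitinase-like list were scarce or overlapped between the groups, Chid1 excepted. Of the 10 chitinase and chitinase-like genes 7 were tested, 0 were called by edgeR, 4 lay above and 0 below with an unadjusted p under 0.05, DESeq2 called 1 higher and 0 lower, and the median log2 fold change was 0.41. Chit1, the chitotriosidase, had 0 counts in all 6 libraries, and Chil5 and Chil6 had at most 4 in any. Chia1, the acidic mammalian chitinase, averaged 0.551 ± 0.129 CPM in the Cre libraries and 0.412 ± 0.0664 CPM in the controls. The chitinase-domain gene Chid1 averaged 31.1 ± 3.4 CPM in the Cre libraries and 27.1 ± 0.663 CPM in the controls, and the lysosomal chitobiase gene Ctbs 24.7 ± 2.06 CPM in the Cre libraries and 24.8 ± 0.788 CPM in the controls. Ovgp1, the oviductal glycoprotein gene of this family, averaged 0.248 ± 0.0488 CPM in the Cre libraries and 0.238 ± 0.12 CPM in the controls. Of the relatives of Retnla, Retnlb had 0 counts, Retn averaged 0.368 ± 0.185 CPM in the Cre libraries and 0.301 ± 0.118 CPM in the controls, and Retnlg averaged 0.278 ± 0.0573 CPM in the Cre libraries and 0.153 ± 0.0218 CPM in the controls. Among these 4 resistin-like genes 3 were tested, 0 were called by edgeR or DESeq2, and 2 lay above with an unadjusted p under 0.05.

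No receptor or signalling gene for IL-4 and IL-13 passed edgeR. Of 18 tested, edgeR called 0, 1 lay above and 1 below with an unadjusted p under 0.05, DESeq2 called 0 higher and 1 lower, and the median log2 fold change was 0.02. The receptor chain gene Il4ra averaged 232 ± 21.5 CPM in the Cre libraries and 205 ± 6.3 CPM in the controls, and Il13ra1 averaged 128 ± 5.77 CPM in the Cre libraries and 151 ± 22.9 CPM in the controls. Stat6 averaged 318 ± 15.6 CPM in the Cre libraries and 313 ± 6.84 CPM in the controls. Of the transcription factor genes linked to the same state, Klf4 averaged 415 ± 61.3 CPM in the Cre libraries and 493 ± 54.8 CPM in the controls, and Egr2 averaged 207 ± 32.1 CPM in the Cre libraries and 266 ± 1.68 CPM in the controls. The cytokines themselves were near 0: Il4 had 16, 11 and 21 counts in the Cre libraries and 10, 7 and 6 in the controls, Il13 had 2, 0 and 7 in the Cre libraries and 0, 0 and 3 in the controls, and Il25 had 0. Of 6 group 2 cytokine genes only Il33 was tested, and edgeR did not call it. Il33 averaged 0.637 ± 0.142 CPM in the Cre libraries and 0.698 ± 0.229 CPM in the controls.

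No marker of alternative activation, members included, passed edgeR. Of 22 tested of 26 listed (Ear11 matched no row), edgeR called 0, 8 lay above and 2 below with an unadjusted p under 0.05, DESeq2 called 6 higher and 1 lower, and the median log2 fold change was 0.32. The mannose receptor gene Mrc1 and the beta-glucan receptor gene Clec7a, the most abundant, averaged 2643 ± 23.8 and 1156 ± 87.8 CPM in the Cre libraries, and 2487 ± 17.1 and 1258 ± 249 CPM in the controls. The cadherin gene Cdh1 averaged 143 ± 12.1 CPM in the Cre libraries and 109 ± 7.08 CPM in the controls, and the scavenger receptor gene Cd36 598 ± 66 CPM in the Cre libraries and 462 ± 20.9 CPM in the controls. Chosen after their values were seen, the chemokine gene Ccl24 had 46, 67 and 2176 counts in the Cre libraries against 1, 2 and 9 in the controls, and the lipoxygenase gene Alox15, also on the eosinophil list, had 3, 11 and 113 counts in the Cre libraries against 1, 0 and 1 in the controls. In both the highest library was Cre library 3, as for Retnla. The chemokine gene Ccl17 instead had 56, 816 and 882 counts in the Cre libraries and 37, 35 and 91 in the controls, closer to Arg1 in that both Cre libraries 2 and 3 were high.

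No gene of the classical activation list passed edgeR. Of 19 tested of 23 listed (Acod1 matched no row), edgeR called 0, 4 lay above and 2 below with an unadjusted p under 0.05, DESeq2 called 2 higher and 1 lower, and the median log2 fold change was 0.24. Tnf held 50.1, 36.4 and 26.2 CPM in the Cre libraries, against 64.7, 62.9 and 65.2 CPM in the controls, without overlap (adjusted p 0.185, edgeR). Cre library 3, where Arg1, Retnla and Nos2 were highest, had the lowest Tnf. Ptgs2, the inducible cyclooxygenase gene, held 1.79, 5.72 and 7.08 CPM in the Cre libraries and 1.38, 1.9 and 0.827 CPM in the controls. Ciita, the activator of MHC class II genes, averaged 4.08 ± 0.829 CPM in the Cre libraries and 18.4 ± 12.9 CPM in the controls, where control library 3 was itself at 4.47 CPM. The Fc receptor gene Fcgr1 averaged 99.4 ± 5.79 CPM in the Cre libraries and 96.2 ± 16.8 CPM in the controls, and Irf5 averaged 73.0 ± 6.75 CPM in the Cre libraries and 74.5 ± 6.78 CPM in the controls.

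The genes whose pattern over the 6 libraries was nearest to that of Arg1 and Retnla were sought among 10727 genes. Those had counts in every library and a mean of at least 1 CPM over all 6, predicted genes left out. A gene could thus enter through high Cre libraries alone, while genes at 0 in any library were left out. The search describes patterns and is not a test. Likeness was the root mean square difference of log2 CPM after centring each gene on its own mean. Nearest to Arg1 were Acpp (0.72), Rnase2a (0.83), Mmp12 (1.06) and H2-M2 (1.07). Acpp held 0.321, 4.15 and 3.29 CPM in the Cre libraries, against 0.0332, 0.0499 and 0.123 CPM in the controls, where its counts were 2, 3 and 7. Mmp12, the macrophage elastase gene, held 23.9, 111 and 566 CPM in the Cre libraries, against 7.97, 4.85 and 4.84 CPM in the controls (log2 fold change 5.31, adjusted p 0.149, edgeR). H2-M2 held 2.28, 27.7 and 50.4 CPM in the Cre libraries, against 0.299, 0.233 and 0.088 CPM in the controls. Nearest to Retnla was Rbp4 (0.40), the plasma retinol-binding protein gene, at 1.34, 1.22 and 28.8 CPM in the Cre libraries, against 0.448, 0.499 and 0.422 CPM in the controls, followed by Slc36a2 (0.86), Adam8 (0.87) and Gpc1 (0.89). Nearest to Chil3 were Rgs1 (0.11), Msi2 (0.13), Pvr (0.14) and Chchd10 (0.15), and nearest to Chil4 were Ccl4 (0.22), Hspa1b (0.22), Plekhf1 (0.22) and Lpar6 (0.22). Rgs1 held 72.4, 87.1 and 115 CPM in the Cre libraries, against 57.3, 55.6 and 66.1 CPM in the controls.

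**Figure D5:**
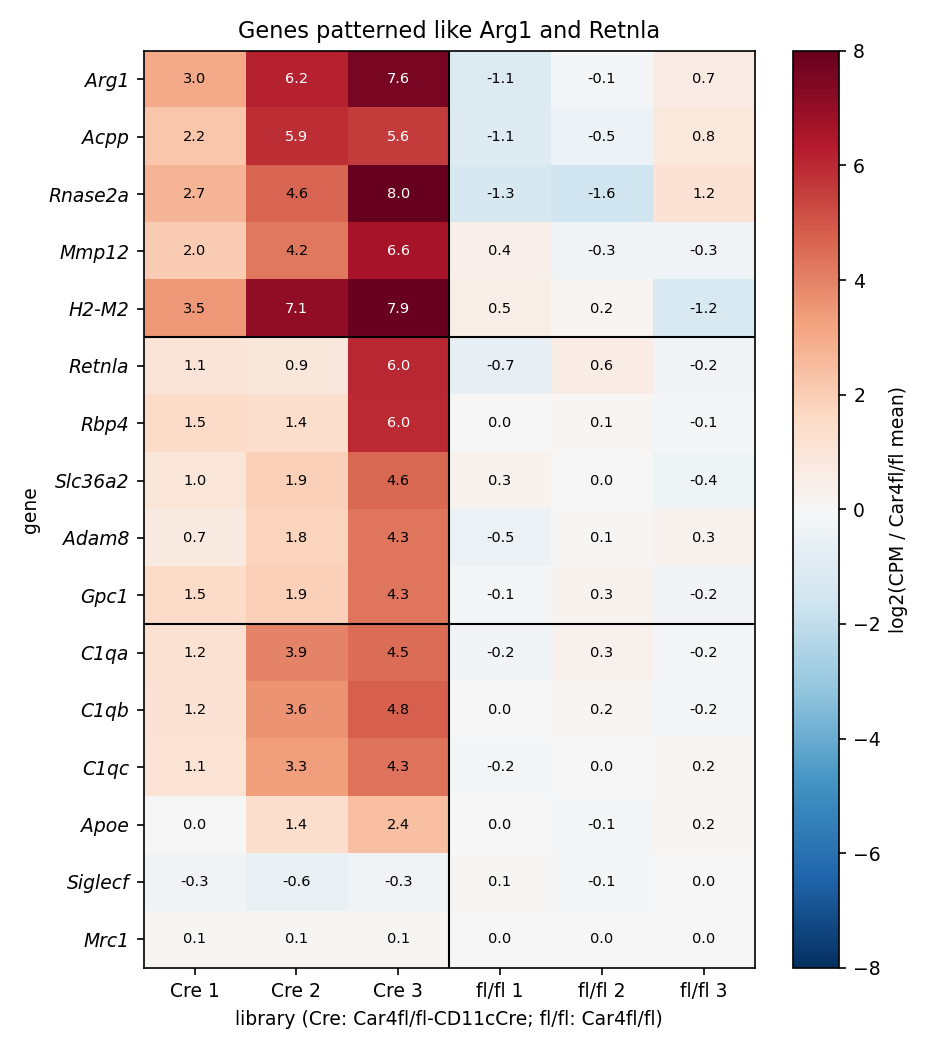
Log2 ratio of each library to the Car4fl/fl mean for Arg1 and its 4 nearest genes (top) and Retnla and its 4 nearest genes (middle). The bottom block holds 4 of the 15 interstitial macrophage markers (C1qa, C1qb, C1qc and Apoe) with Siglecf and Mrc1. Columns are the 6 libraries and colour gives the log2 ratio. The Arg1 block is high in Cre libraries 2 and 3, and the Retnla block mainly in Cre library 3.

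Among other cell types, the lymphocyte list also took its highest sum in Cre library 3. The 11 monocyte markers other than Chil3 summed to 503 to 595 CPM in the Cre libraries and 616 to 741 CPM in the controls. Most of that sum was Nr4a1, an immediate early gene, at 412 to 505 CPM in the Cre libraries and 520.0 to 657 CPM in the controls. The other 10, a split chosen after the values were seen, summed to 87.6 to 90.6 CPM in the Cre libraries and 84.0 to 96.4 CPM in the controls, which overlapped. Most of this smaller sum was Ace, at 54.6 to 66.1 CPM in the Cre libraries and 61.5 to 66.8 CPM in the controls. Of all 12 monocyte genes 2 lay above (Chil3 and Hp) and 3 below (S100a4, Vcan and Nr4a1) with an unadjusted p under 0.05 by edgeR. Neutrophil markers summed to 105 to 111 CPM in the Cre libraries and 86.8 to 96.3 CPM in the controls, and Ly6g had 0 counts in all 6. Of the eosinophil granule genes, Prg2 reached 0.0743 CPM and Epx 0.0155 CPM in the Cre libraries, and 0.0333 and 0 CPM in the controls. Only 2 genes of the eosinophil list were tested, Ear6, which was higher, and Siglecf, which was lower. Ear6 held 6.09, 10.8 and 10.1 CPM in the Cre libraries, against 3.42, 3.46 and 5.26 CPM in the controls (adjusted p 0.159, edgeR). Mast cell and basophil markers summed to at most 1.18 CPM in the Cre libraries and 1.46 CPM in the controls. Lymphocyte markers summed to 13.2, 23.1 and 44.9 CPM in the Cre libraries and 12.3 to 14.6 CPM in the controls, of which Jchain, the plasma cell joining chain gene, gave 27.5 CPM in Cre library 3. Dendritic cell markers summed to 19.5 to 24.6 CPM in the Cre libraries and 17.5 to 26.4 CPM in the controls, epithelial markers to 366 to 430.2 CPM in the Cre libraries and 391 to 477 CPM in the controls, and endothelial and fibroblast markers to 184 to 201 CPM in the Cre libraries and 154 to 164 CPM in the controls. Most of that last sum was Vwf, named after the values were seen, at 152 to 179 CPM in the Cre libraries and 117 to 136 CPM in the controls. Of the 12 genes of that list, Vwf was the only 1 with all Cre libraries above all controls, and 1 had all below. The part of these cells in the values above was not tested.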

How the data were processed

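The authors deposited whole-number read counts per gene, without normalization, for 6 libraries made by polyA capture after RNeasy extraction, per the labels' protocols. Among the tools in the submitters' processing notes are STAR 2.6.1, featureCounts 1.6.4 and cutadapt 2.5, and the build is GRCm38. The sources used here do not state annotation release, strand setting or read length, so reads of overlapping or antisense genes cannot be told apart.

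Columns were matched to mice by library name. The test was edgeR's quasi-likelihood test (edgeR 4.0.16, R 4.3.3; filterByExpr, minimum count 10; TMM, estimateDisp, glmQLFit, glmQLFTest, two-sided, no covariate) and adjusted by Benjamini-Hochberg over 15147 genes, with a threshold of 0.05. Fit SEs are the absolute log2 fold change over the square root of F. On counts simulated for 15147 genes this code recovered 66% of 50 changes of 1.5-fold, 84% at 2-fold and 100% at 4-fold, with 21 false calls among 196. These shares hold for the simulated counts only. In the real libraries edgeR did not call Arg1 (log2 fold change 6.50 ± 1.18, SE) or Mmp12 (5.31 ± 1.09, SE). A gene without a call here may therefore still differ by more than 4-fold. CPM are TMM-scaled without a prior count, and ratios used a prior count of 1. Exon lengths and coordinates are from GENCODE M21, whose merged exons may be longer than the transcripts made here. Where a symbol stood on several rows, the row with most counts was used. As alternatives, scaling was by RLE, by upper quartile or by total alone, tests were DESeq2 1.42.0 and limma-voom (limma 3.58.1), and there were other filters and dispersions, a replicate block, an adjusted p of 0.1, and leaving out each library.

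All 9 members are named. For each list the tested non-members named are the 2 with most counts and the 3 of smallest p, and for Arg1, Chil3, Chil4 and Retnla the 4 genes nearest in pattern. Members and lists were chosen with earlier results of these data known. P-values measure the spread between these libraries. As a check for a library deposited more than once, counts within a group were compared by chi-square, whose statistic over its degrees of freedom was 19.6 or more. It says nothing else of the spread. Same-numbered libraries of the groups are not stated to be paired. 1 marker gene is not reported here. Figures were drawn with matplotlib 3.10.9.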

Additional observations from a re-analysis of the deposited data

How the results depend on the processing

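The 9 genes kept their direction under every alternative run except Odc1, which turned to 0.0338 without Cre library 3 and 0.0539 without control library 3. Nos2 was fitted under only 5 alternatives, each of which kept Cre library 3. Counts of list genes given here include any of the 9 genes on the pathway lists. DESeq2 called 561 genes in all (2.27% higher, 1.43% lower). Among them were 3 of the 9 genes, Arg1, Chil3 and Slc7a2, with log2 fold changes of 6.49, 0.77 and 0.29. Of 114 distinct list genes tested in the main fit, DESeq2 called 17, these 3 included. With no low-count filter edgeR called 523 genes (1.23% higher, 0.665% lower). Of the 9 genes it called 4 (Arg1, Chil3, Nos2 and Retnla, at 6.49, 0.77, 5.16 and 4.53), and of the list genes 18, these 4 included. Robust dispersions left 1 called gene. With the replicate block 10 genes were called (0.0528% higher, 0.0132% lower), 1 of the 9 (Arg1, 6.21) and 2 list genes, Arg1 and Ccl24. Retnla then stood at 2.85. The deviations of same-numbered libraries from their group means correlated at -0.00977, -0.156 and 0.0691, and those of differently numbered ones at -0.224 to 0.239. With 3 libraries a group this cannot show whether the libraries were paired, and the labels do not state it. Without 1 library at a time, 1 to 286 genes were called, 0 to 2 of the 9 and 0 to 13 list genes. The most were called without Cre library 1, in a fit that called 1.59% of genes higher and 0.237% lower. Leaving out libraries moved Arg1 between 5.32 and 7.03, Chil3 between 0.59 and 0.96, Chil4 between 0.60 and 1.29, Retnla between 0.97 and 5.08, and Odc1 between -0.0928 and 0.0539. Nos2 moved between 4.74 and 5.85 in the 4 of 6 such fits where it passed the filter. It had no fit without Cre library 2 or without Cre library 3, which held most of its Cre counts. The Arg1 to Arg2 ratio difference stayed between 4.71 and 6.75 (log2). Why these settings differ was not tested. With 3 libraries a group no exact permutation p can fall below 0.1, and control counts of 1 to 6 leave the size of the Nos2 difference poorly set.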
